A study of Mus musculus with 20 samples.

Results

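The genes described here are the platelet-derived growth factor (PDGF) ligands and receptors together with markers of the myofibroblast, the contractile, matrix-producing cell of fibrotic tissue. They were taken by gene symbol from the table of raw counts, and the 10 symbols, Pdgfa, Pdgfb, Pdgfc, Pdgfd, Pdgfra, Pdgfrb, Acta2, Tagln, Postn and Vim, were all found among its 24411 genes. On the GRCm38 build Pdgfa lies at chr5:138976014-138997370, Pdgfb at chr15:79995874-80014977, Pdgfc at chr3:81036416-81214040, Pdgfd at chr9:6168584-6378850, Pdgfra at chr5:75152292-75198215 and Pdgfrb at chr18:61045150-61085061. Acta2 lies at chr19:34241090-34255590, Tagln at chr9:45929619-45936058, Postn at chr3:54361109-54391037 and Vim at chr2:13573927-13582826. All 10 passed the filter on low counts in every comparison.

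PDGF ligands are secreted dimers that bind the receptor tyrosine kinases encoded by Pdgfra and Pdgfrb, and PDGF-C and PDGF-D must first be cleaved by proteases such as tissue plasminogen activator or urokinase. In the kidney the receptors mark interstitial fibroblasts, pericytes, mesangial cells and vascular smooth muscle, while the ligands are made by endothelial, epithelial and mesenchymal cells. When fibroblasts or pericytes are activated they take on smooth muscle actin (Acta2) and transgelin (Tagln), secrete matrix proteins such as periostin (Postn) and hold the intermediate filament vimentin (Vim), which injured tubule cells can also produce.

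RNA from the kidneys of 20 mice at the age of P125 (P, postnatal day) was sequenced, split by sex and genotype into 4 groups of 5 mice. Mutants carried Pkd2fl/fl with Pax8rtTA and TetOCre (Pkd2fl/fl; Pax8; Tet-O-Cre + in the labels). Controls were littermates without the Pax8rtTA or without the TetOCre transgene, and every mouse of both genotypes received doxycycline (DOX) intraperitoneally at 50 mg/kg from P27 to P29. The Pax8 promoter directs Cre to the tubules, from proximal tubule to collecting duct. Whether Pkd2 was intact in fibroblasts, pericytes and smooth muscle was not tested here. The mice were C57BL/6 and came from 3 litters by their labels, named A, B and C. Male controls 1 to 3 were of litter A, male control 4 of B and male control 5 of C, while male mutants 1 and 2 were of A, 3 and 4 of B and 5 of C. In both female groups mouse 1 was of litter A, mice 2 to 4 of B and mouse 5 of C. Levels are given as CPM, a gene's counts scaled to library size by the trimmed mean of M-values (TMM), and differences as log2 fold changes with their standard error (SE).

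Total counts ran from 12726655 to 19324073 in 19 libraries and came to 11307741 in female mutant 4. This library stood apart from the others: 14850 genes had at least 1 count, against 16776 to 17724 elsewhere, and 76 genes had exactly 1 count, against 708 to 859. For females, log2 fold changes of the 10 genes are therefore given with and without it. Female mutant 4 also had the smallest kidney for its body weight among the 10 mutants, at 0.836%, and the highest Pkd2 level, at 182 CPM. In fits without it, the part of its library and that of its milder phenotype cannot be told apart. Pkd2, the deleted gene, measured 272, 298, 250.3, 332 and 303 CPM in male controls 1 to 5 and 109.7, 124, 109.7, 133 and 120.1 CPM in male mutants 1 to 5. In females Pkd2 measured 193, 306, 291, 218 and 278 CPM in controls and 150.1, 133, 94.7, 182 and 166 CPM in mutants. Every mutant lay below every control of its sex, with log2 fold changes of -1.32 in males (SE 0.083, edgeR adjusted p = 2.18e-05) and -0.80 in females (SE 0.18, edgeR adjusted p = 0.0276). Markers of kidney tissue were abundant: the phosphate carrier Slc34a1 of the proximal tubule averaged 5346 ± 176 CPM (SD, n = 5) and uromodulin (Umod) of the thick ascending limb 4036 ± 107 CPM (SD, n = 5) in male controls. Of the 14 lists of pathway and cell type genes used below, renin (Ren1) was the only gene listed at 0 counts in every mouse. Whether that value reflects expression or the way reads were counted is not known, as the counting tool and annotation are not given in the sources used here.

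At an adjusted p under 0.01 in edgeR's quasi-likelihood test, 4 of the 10 genes (Pdgfb, Pdgfd, Acta2 and Tagln) were higher in male mutants than in male controls, where 5.25% of all 14010 genes tested were, and DESeq2 called 6, these 4 with Pdgfrb and Postn, against 8.84% of genes higher in mutants. In females 0 of the 10 passed, against 0.457% of 14439 genes higher in mutants. At an unadjusted p under 0.05, 6 of the 10 differed in females, against 20.6% of all genes, and DESeq2 called 3 (Pdgfb, Acta2 and Vim), against 4.45% higher in mutants. Without female mutant 4, edgeR called Acta2, Tagln and Vim in females, against 4.68% of 14595 genes higher in mutants. In females the log2 fold change went from 0.43 (SE 0.14, edgeR adjusted p = 0.0954) with it to 0.50 (SE 0.13, edgeR adjusted p = 0.0265) without it for Pdgfa and from 0.014 (SE 0.21, edgeR adjusted p = 0.983) to 0.15 (SE 0.17, edgeR adjusted p = 0.648) for Pdgfra. Without it, the value was 0.68 (SE 0.16, edgeR adjusted p = 0.0216) for Pdgfb, 0.30 (SE 0.09, edgeR adjusted p = 0.0495) for Pdgfc and 0.067 (SE 0.23, edgeR adjusted p = 0.893) for Pdgfd, and 0.43 (SE 0.14, edgeR adjusted p = 0.0645) for Pdgfrb and 1.30 (SE 0.44, edgeR adjusted p = 0.0777) for Postn. Among all genes edgeR called 92 in females, in either direction, 866 without female mutant 4 and 3 to 57 without any 1 of the other 9 females. With both sexes in 1 fit, 5 of the 10 (Pdgfb, Pdgfc, Acta2, Tagln and Vim) were higher in mutants, against 10.0% of 14191 genes, and DESeq2 called 7, against 12.1% higher in mutants. Without female mutant 4 Pdgfa, Pdgfrb and Postn passed in edgeR over both sexes as well. All 10 log2 fold changes were above 0 in each of these comparisons, and their medians were 0.78 in males, 0.54 in females and 0.57 over both sexes, where the medians of all genes were -0.002 in males, -0.0029 in females and -0.012 over both sexes. The fit over both sexes shares its mice with the other 2 fits and is not separate evidence. In whole kidney, more or fewer cells of a type and more or less RNA per cell cannot be told apart.

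**Figure D1:**
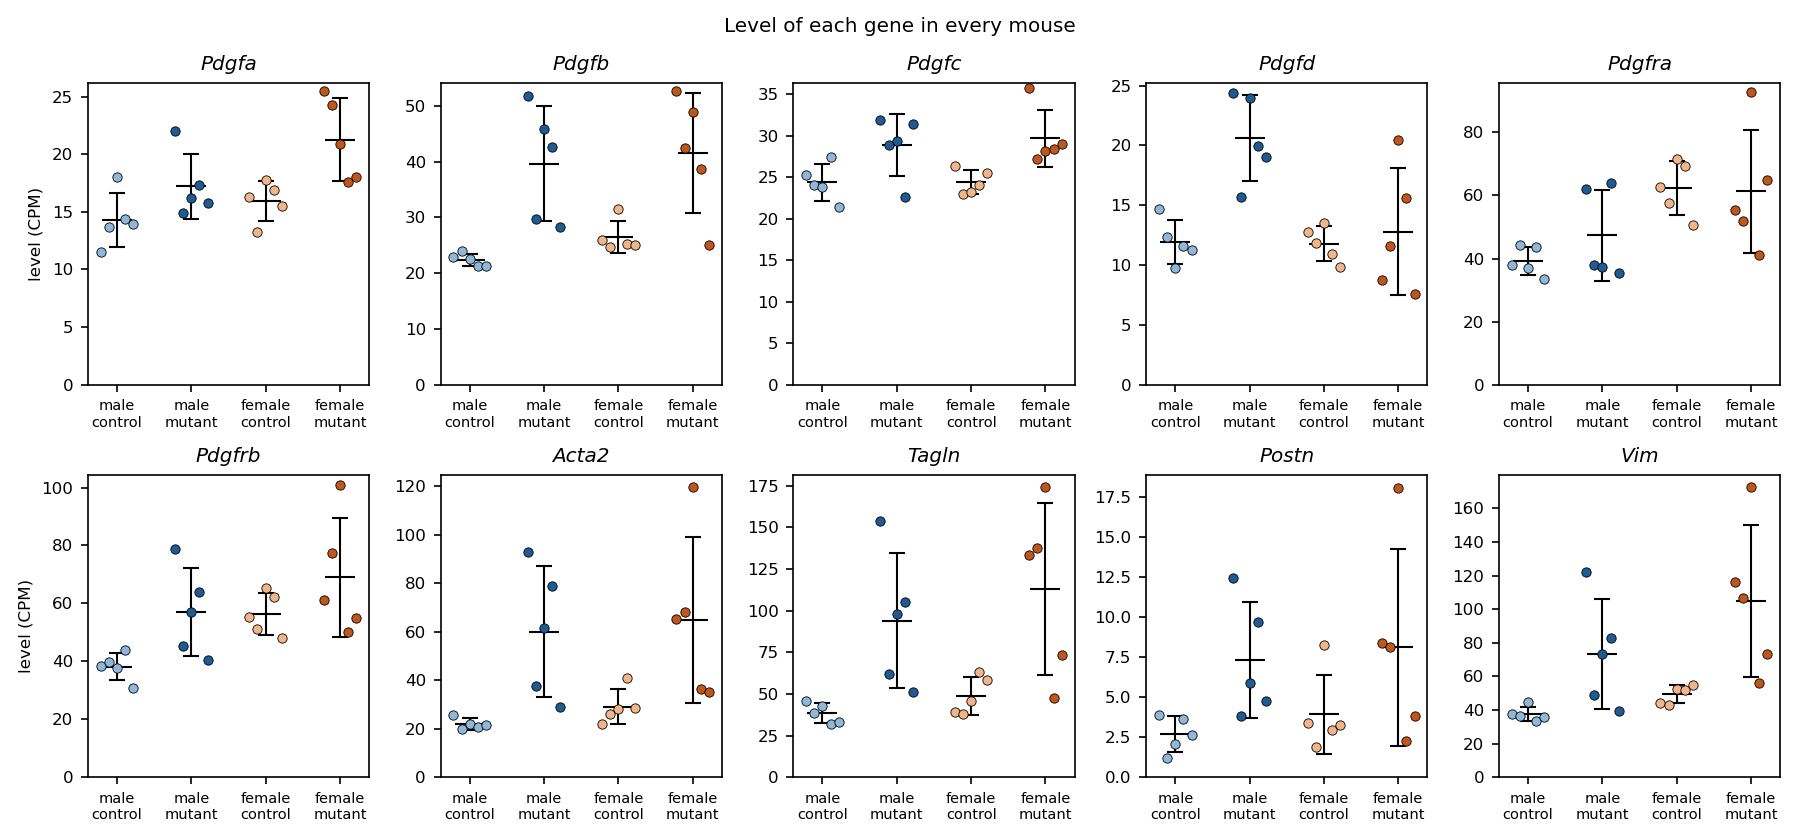
Level of each of the 10 genes (vertical axis, CPM from 0) in the 4 groups, with 1 point per mouse and the mean and SD of each group in black. Mutants are spread more widely than controls for Acta2, Tagln, Postn and Vim, and female mutants overlap female controls for all genes but Pdgfc and Vim.

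Among the ligands, Pdgfb, which encodes the PDGF-B chain and is a main ligand for the beta receptor, had the smallest adjusted p over both sexes. Pdgfb measured 22.9, 23.9, 22.5, 21.3 and 21.2 CPM in male controls and 51.8, 29.7, 45.9, 42.6 and 28.3 CPM in male mutants. Pdgfb in females measured 25.98, 24.6, 31.5, 25.3 and 25.1 CPM in controls and 52.6, 42.4, 48.9, 38.7 and 24.97 CPM in mutants. All male mutants exceeded all male controls, as for 8.75% of genes tested in males, with male mutants 2 and 5 nearest to the controls. Among females, mutant 5 lay inside the control range and the other 4 mutants lay above it. The log2 fold change of Pdgfb was 0.79 (SE 0.15, edgeR adjusted p = 0.00435) in males, 0.64 (SE 0.16, edgeR adjusted p = 0.04) in females and 0.71 (SE 0.11, edgeR adjusted p = 0.000142) over both sexes. Over both sexes the call remained without any single mouse, with log2 fold changes from 0.62 to 0.79.

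Pdgfd, whose product acts mainly on the beta receptor, was called in males and not in females. Pdgfd measured 14.7, 12.4, 9.76, 11.6 and 11.3 CPM in male controls and 24.4, 15.7, 23.97, 19.9 and 19.1 CPM in male mutants. Pdgfd in females measured 12.7, 11.8, 13.6, 10.9 and 9.87 CPM in controls and 8.78, 11.6, 20.5, 15.6 and 7.58 CPM in mutants. All male mutants lay above all male controls, whereas female mutants 1 and 5 lay below every female control and female mutants 3 and 4 lay above every one. The log2 fold change was 0.77 (SE 0.15, edgeR adjusted p = 0.00544) in males and 0.091 (SE 0.22, edgeR adjusted p = 0.876) in females, and 0.42 (SE 0.16, edgeR adjusted p = 0.0531) over both sexes. The sex-by-genotype term, which tests whether the change differs between the sexes, was 0.71 for Pdgfd (SE 0.27), with an edgeR p of 0.0172 that did not pass adjustment over 14820 genes (adjusted p = 1). A difference between the sexes in the change of Pdgfd thus did not pass.

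Pdgfa and Pdgfc, which encode ligands of the alpha receptor, had smaller log2 fold changes than Pdgfb in both sexes. Pdgfc measured 25.2, 24.1, 23.8, 27.5 and 21.4 CPM in male controls and 31.9, 28.9, 29.4, 22.6 and 31.5 CPM in male mutants. Pdgfc in females measured 26.4, 23.01, 23.2, 24.1 and 25.5 CPM in controls and 35.7, 27.2, 28.2, 28.5 and 28.96 CPM in mutants. Male mutant 4 lay within the male control range, whereas all female mutants lay above all female controls, as for 3.71% of genes tested in females. Pdgfc passed over both sexes, at 0.27 (SE 0.067, edgeR adjusted p = 0.00542), a fold of 1.21, but in neither sex alone, at 0.25 (SE 0.11, edgeR adjusted p = 0.133) in males and 0.30 (SE 0.089, edgeR adjusted p = 0.0771) in females. That call was lost on leaving out any 1 of male controls 2, 3 and 5, male mutants 1, 3 and 5, female controls 1, 2 and 3 or female mutants 1 and 3, with edgeR adjusted p from 0.0104 to 0.0231, and with no filter on low counts (adjusted p = 0.0102), with log2 fold changes from 0.23 to 0.27 in these fits. Pdgfa ranged from 11.5 to 18.03 CPM in male controls and from 14.9 to 22.04 CPM in male mutants, and from 13.3 to 17.8 CPM in female controls and 17.6 to 25.5 CPM in female mutants. The groups overlapped in both sexes, and its log2 fold change over both sexes was 0.35 (SE 0.099, edgeR adjusted p = 0.0125), short of the threshold. Pdgfa passed in edgeR without male mutant 2 (0.40, adjusted p = 0.00606), male control 3 (0.39, adjusted p = 0.00763) or female mutant 4 (0.38, adjusted p = 0.00668), and with no litter term. DESeq2 called Pdgfa too (adjusted p = 0.0049). Over each mouse left out its log2 fold change ran from 0.30 to 0.40, with edgeR adjusted p up to 0.0481.

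The receptors moved less than the contractile markers. Pdgfrb, the beta receptor of pericytes, mesangial cells and fibroblasts, measured 38.6, 39.8, 37.8, 43.98 and 30.9 CPM in male controls and 78.7, 45.2, 57.2, 63.9 and 40.6 CPM in male mutants. Pdgfrb in females measured 55.4, 51.04, 65.5, 62.05 and 47.9 CPM in controls and 61.2, 77.5, 101, 50.2 and 55.1 CPM in mutants. Male mutant 5 lay within the male control range, and female mutants 1, 4 and 5 lay within the female control range. The log2 fold change of Pdgfrb was 0.55 (SE 0.13, edgeR adjusted p = 0.0136) in males, 0.31 (SE 0.18, edgeR adjusted p = 0.352) in females and 0.42 (SE 0.12, edgeR adjusted p = 0.0108) over both sexes, none under 0.01. DESeq2 called Pdgfrb in males (adjusted p = 0.00109) and over both sexes (adjusted p = 0.00364). Without male mutant 2, edgeR called Pdgfrb in males (0.67, adjusted p = 0.0016) and over both sexes (0.46, adjusted p = 0.00661), and without female mutant 4 over both sexes (0.49, adjusted p = 0.000951). Without male mutant 1 Pdgfrb fell to 0.34 (adjusted p = 0.0134) in males and 0.32 (adjusted p = 0.0385) over both sexes, and without female mutant 3 to 0.14 (adjusted p = 0.661) in females. Pdgfra, the alpha receptor of interstitial fibroblasts, measured 38.05, 44.2, 36.95, 43.6 and 33.4 CPM in male controls and 61.9, 37.9, 37.5, 63.97 and 35.4 CPM in male mutants. Pdgfra in females measured 62.7, 57.6, 71.4, 69.2 and 50.6 CPM in controls and 55.5, 51.96, 92.8, 41.2 and 64.9 CPM in mutants. Only male mutants 1 and 4 and female mutant 3 exceeded every control of their sex for Pdgfra, and its log2 fold change was 0.12 (SE 0.14, edgeR adjusted p = 0.588) over both sexes, from 0.011 without female mutant 3 to 0.19 without female mutant 4.

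Acta2 and Tagln, the contractile markers, had larger differences. Acta2 measured 25.8, 19.7, 22.01, 20.7 and 21.4 CPM in male controls and 93.1, 37.5, 61.6, 78.8 and 28.9 CPM in male mutants. Acta2 in females measured 22.1, 25.96, 27.996, 41.03 and 28.5 CPM in controls and 65.4, 68.3, 119.7, 36.4 and 35.1 CPM in mutants. Every male mutant exceeded every male control, with male mutant 5 the nearest, while female mutants 4 and 5 lay below female control 4, the highest control. The log2 fold change of Acta2 was 1.37 (SE 0.26, edgeR adjusted p = 0.00445) in males, a fold of 2.58, 1.16 (SE 0.31, edgeR adjusted p = 0.0555) in females and 1.25 (SE 0.22, edgeR adjusted p = 0.000347) over both sexes. Without female mutant 4 the value in females was 1.33 (SE 0.26, edgeR adjusted p = 0.00857), and without female mutant 3 it was 0.82 (adjusted p = 0.0896), with adjusted p up to 0.166 over all females left out in turn.

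Tagln, an actin-binding protein of smooth muscle, measured 45.6, 38.6, 42.9, 31.9 and 33.3 CPM in male controls and 154, 61.7, 98.3, 105 and 51.2 CPM in male mutants. Tagln in females measured 39.2, 38.2, 45.6, 62.9 and 58.6 CPM in controls and 133, 138, 174, 47.3 and 73.5 CPM in mutants. Every male mutant again exceeded every male control, and female mutant 4 alone lay inside the female control range. The log2 fold change of Tagln was 1.28 (SE 0.23, edgeR adjusted p = 0.00346) in males, 1.23 (SE 0.33, edgeR adjusted p = 0.058) in females and 1.24 (SE 0.21, edgeR adjusted p = 0.000347) over both sexes, and 1.43 in females without female mutant 4 (SE 0.24, edgeR adjusted p = 0.00475). Without female mutant 3 Tagln in females was 0.98 (adjusted p = 0.118), and over all females left out in turn the adjusted p reached 0.178. Exons of Tagln overlap those of Pcsk7 on the other strand, and whether counting used strand is not given in the sources used here, so their reads cannot be told apart with certainty. Pcsk7 itself ran from 42.7 to 47.8 CPM in male controls and from 34.8 to 40.9 CPM in male mutants. Over both sexes Pcsk7 differed by -0.23 on the log2 scale (SE 0.06, edgeR adjusted p = 0.00984), opposite in sign to Tagln. Acta2 and Tagln over both sexes kept their calls without any single mouse, with log2 fold changes from 1.08 to 1.35 for Acta2 and from 1.10 to 1.35 for Tagln.

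Postn, a matricellular protein of activated fibroblasts, was the least abundant of the 10 genes, with 19 to 357 counts per mouse. It measured 3.88, 1.21, 2.10, 3.65 and 2.64 CPM in male controls and 12.5, 3.83, 5.90, 9.70 and 4.80 CPM in male mutants. Postn in females measured 3.36, 1.91, 8.25, 2.98 and 3.27 CPM in controls and 8.43, 8.15, 18.1, 2.24 and 3.82 CPM in mutants. Male mutant 2 lay just under the highest male control, and female mutants 2, 4 and 5 lay below female control 3, the highest of the female controls. The log2 fold changes, 1.40 (SE 0.38, edgeR adjusted p = 0.0229) in males, 1.04 (SE 0.53, edgeR adjusted p = 0.307) in females and 1.20 (SE 0.35, edgeR adjusted p = 0.016) over both sexes, were near those of Acta2 but had larger errors and missed the threshold. Postn passed in edgeR over both sexes without female mutant 4 (1.34, adjusted p = 0.00262), without female control 3 (1.42, adjusted p = 0.00652) or with no litter term. In males Postn passed without male mutant 2 (1.61, edgeR adjusted p = 0.00576) or with no filter on low counts. It fell in males to 0.87 (adjusted p = 0.0718) without male mutant 1, in females to 0.50 (adjusted p = 0.649) without female mutant 3, and over both sexes to 0.97 (adjusted p = 0.0592) and 0.96 (adjusted p = 0.0479) without the same mice. DESeq2 called Postn in males (adjusted p = 0.00152).

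Vim measured 37.8, 36.5, 44.8, 33.3 and 36.01 CPM in male controls and 122, 49.1, 73.6, 82.7 and 39.2 CPM in male mutants. Vim in females measured 44.2, 43.2, 52.6, 51.6 and 55.1 CPM in controls and 116, 106, 173, 56.2 and 73.2 CPM in mutants. Male mutant 5 lay within the male control range, whereas all female mutants exceeded all female controls, with female mutant 4 only just above them. The log2 fold change of Vim was 0.94 (SE 0.23, edgeR adjusted p = 0.0166) in males, 1.11 (SE 0.27, edgeR adjusted p = 0.0402) in females and 1.02 (SE 0.19, edgeR adjusted p = 0.000682) over both sexes. Without female mutant 4 Vim reached 1.27 in females (SE 0.21, edgeR adjusted p = 0.00435), and in males it passed without male mutant 2 (1.13, edgeR adjusted p = 0.00186), male control 5 (1.15, 0.00933) or male mutant 5 (1.16, 0.00921). Without male mutant 1 the value in males fell to 0.56 (adjusted p = 0.0371), and without female mutant 3 that in females fell to 0.81 (adjusted p = 0.0511). Over both sexes the call of Vim remained without any single mouse.

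**Figure D2:**
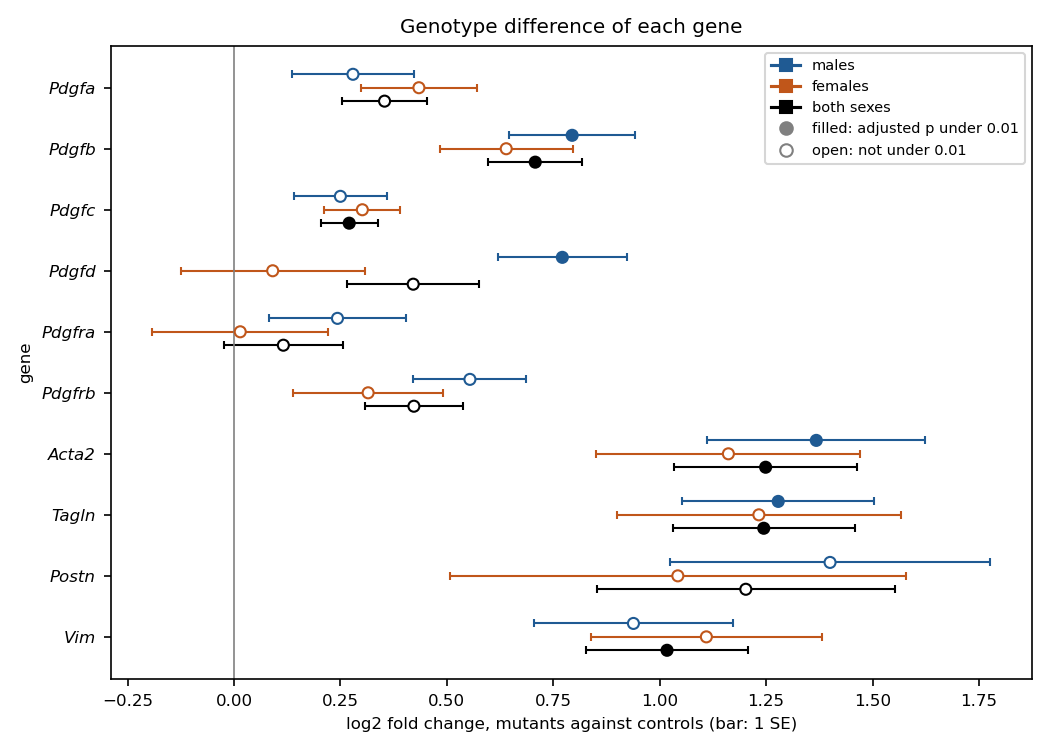
Log2 fold change of each gene in mutants against controls (horizontal axis) in males (blue), females (orange) and both sexes (black), with bars of 1 SE and filled points where the adjusted p was under 0.01. Acta2, Tagln, Postn and Vim lie between 0.94 and 1.40, the ligands and receptors between 0.01 and 0.79.

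The calls in males depended on single mice. Of the 10 genes, 4 were called in males with all mice, 0 on leaving out male control 2, 3 or 4, 1 without male control 1, 2 without male mutant 3 and 7 without male mutant 2. The calls among all genes moved too, from 1185 to 585 without male control 2, 477 without male control 3, 187 without male control 4, 518 without male control 1 and 620 without male mutant 3, and to 1863 without male mutant 2. Pdgfb lost its call in males without any 1 of male controls 1 to 4 or male mutant 3, with edgeR adjusted p from 0.011 to 0.0322 and log2 fold changes from 0.70 to 0.80. Pdgfd lost its call without male controls 2, 3, 4 or 5 or male mutants 1, 3 or 5, with edgeR adjusted p from 0.013 to 0.0367, and with all 20 mice in 1 fit (adjusted p = 0.0141), with log2 fold changes from 0.64 to 0.78 in these fits. Acta2 and Tagln lost theirs without any 1 of male controls 1 to 4, with edgeR adjusted p from 0.0122 to 0.0315 for Acta2 and from 0.0101 to 0.0254 for Tagln, and with log2 fold changes from 1.23 to 1.40 and from 1.14 to 1.30. Over all mice left out in turn the values ran from 0.98 to 1.62 for Acta2 and from 0.92 to 1.49 for Tagln, and the lowest of each came without male mutant 1.

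Compared within litters, 6 of the 10 genes (Pdgfa, Pdgfrb, Acta2, Tagln, Postn and Vim) were higher in mutants in every litter of both sexes, as were 11.8% of 14191 genes. For Pdgfa, Pdgfb, Acta2, Tagln, Postn and Vim the difference was smallest in litter C in both sexes, where 1 mutant was set against 1 control. The difference in mean log2 CPM between mutants and controls for Acta2 was 1.40, 1.74 and 0.43 in males of litters A, B and C, and 1.56, 1.10 and 0.30 in females. Tagln differed by 1.20, 1.67 and 0.62 in males of litters A, B and C and by 1.76, 1.12 and 0.33 in females. Pdgfb differed by 0.76, 1.05 and 0.41 in males and by 1.01, 0.67 and -0.0052 in females of the same litters. For Pdgfd the differences were 0.69, 0.91 and 0.75 in males and -0.53, 0.36 and -0.38 in females, so that only females of litter B shared the sign of the males. Pdgfra had differences of both signs, at 0.29, 0.17 and 0.086 in males and -0.18, -0.17 and 0.36 in females.

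Per kilobase of exon, the order in male controls ran from Tagln, with a level of 19.3 ± 2.98 CPM per kilobase (SD, n = 5), to Postn, with 0.310 ± 0.127. The length joined all annotated exons of a gene, not those of the transcripts expressed. Comparisons between genes therefore depend on that length. Acta2, at a level of 9.99 ± 1.07 CPM per kilobase, and Vim, at 7.94 ± 0.906, came next after Tagln. The receptor Pdgfrb, at 6.97 ± 0.861 CPM per kilobase, was above Pdgfra, at 3.91 ± 0.457. That order came from the joined exon lengths, 5478 bases for Pdgfrb and 10024 for Pdgfra. Before division by length they averaged 38.2 ± 4.72 and 39.2 ± 4.58 CPM in male controls. The 4 ligands lay close together, at 5.37 ± 0.272 CPM per kilobase for Pdgfb, 4.80 ± 0.437 for Pdgfc, 4.59 ± 0.756 for Pdgfa and 3.79 ± 0.575 for Pdgfd, and Pdgfc and Pdgfa differed by less than their spread, as did Pdgfra and Pdgfd. In male mutants Tagln stood at 47.3 ± 20.4 CPM per kilobase, Acta2 at 27.3 ± 12.3 and Vim at 15.5 ± 6.87, all 3 above Pdgfrb, at 10.4 ± 2.78.

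Among other genes of PDGF processing and signal transduction, 14 of 25 tested had an unadjusted edgeR p under 0.05 over both sexes and DESeq2 called 6, where 37.7% of all genes had such a p and DESeq2 called 20.9%, and these shares hold for the lists below as well. At the threshold over both sexes 2 of 25 tested genes were higher in mutants and 0 lower, against 10.0% of all genes higher, with a median log2 fold change of 0.16, against -0.012 over all genes. The 2 were sphingosine kinase Sphk1, at 0.68 (SE 0.15, adjusted p = 0.00243) in edgeR, and the adaptor Grb2, at 0.20 (SE 0.045, adjusted p = 0.00295). Sphk1 averaged 5.56 ± 0.962 CPM in male controls, 8.95 ± 2.61 in male mutants, 8.84 ± 1.58 in female controls and 13.9 ± 3.04 in female mutants (SD, n = 5 each). Plau, which encodes urokinase, was the most abundant gene of the list by its mean over all 20 mice, the measure used for the lists below too, and did not pass, at 0.42 (SE 0.12, adjusted p = 0.0165), and neither did tissue plasminogen activator (Plat), named after its values were seen, at 0.20 (SE 0.11, adjusted p = 0.184).

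Among other contractile and smooth muscle genes, 4 of 16 tested were higher and 1 lower in mutants over both sexes, and 12 had a log2 fold change above 0, with a median log2 fold change of 0.21, against -0.012 over all genes. The actin cross-linker filamin A (Flna) rose, at 0.90 (SE 0.19, adjusted p = 0.00153) in edgeR, as did tropomyosin 1 (Tpm1), at 0.81 (SE 0.15, adjusted p = 0.000553), alpha-actinin 1 (Actn1), at 0.79 (SE 0.13, adjusted p = 0.000301), and caldesmon (Cald1), at 0.53 (SE 0.12, adjusted p = 0.00257), all of which non-muscle cells also express. Smooth muscle myosin heavy chain (Myh11), a marker of mature smooth muscle, fell, at -0.67 (SE 0.16, adjusted p = 0.00477). Myh11 averaged 19.4 ± 1.52 CPM in male controls and 12.6 ± 5.47 CPM in male mutants, and 25.8 ± 4.69 CPM in female controls and 16.8 ± 5.98 CPM in female mutants (SD, n = 5 each). Tpm1 was the most abundant of the list over all 20 mice, although Mylk, the kinase of the myosin light chain, was above it in both control groups. Calponin (Cnn1) and desmin (Des) did not pass, at 0.36 (SE 0.28, adjusted p = 0.378) and 0.13 (SE 0.12, adjusted p = 0.462), and were named after their values were seen, as was Cald1.

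Most matrix genes of activated fibroblasts were higher in mutants. Over both sexes 17 of 18 tested were higher in mutants and 0 lower, with a median log2 fold change of 1.30, against -0.012 over all genes, and 12 of 18 passed in males and, in females, 2 of 19 with female mutant 4 and 15 of 19 without it. With all mice, DESeq2 called 17 of 18 in males and 13 of 19 in females. Large changes were those of lysyl oxidase (Lox), which cross-links collagen, at 2.31 (SE 0.26, adjusted p = 7.75e-06) in edgeR, and the fibrillar collagens Col3a1, at 2.20 (SE 0.24, adjusted p = 6.41e-06), and Col1a1, at 2.05 (SE 0.26, adjusted p = 2.46e-05). Col1a1 averaged 15.96 ± 3.29 CPM in male controls and 78.9 ± 44.5 CPM in male mutants, and 24.96 ± 8.75 CPM in female controls and 94.98 ± 70.6 CPM in female mutants (SD, n = 5 each). Sparc was the most abundant of this list, at 152 ± 18.97 CPM in male controls and 405 ± 171 CPM in male mutants. The summed level of the matrix list was 742, 726, 816, 745 and 572 CPM in male controls and 2914, 1164, 1896, 2152 and 1019.5 CPM in male mutants. The matrix sum in females was 933, 937, 1218, 1055 and 952 CPM in controls and 2539.5, 2663, 3749, 1358 and 1501 CPM in mutants, so that every mutant exceeded every control of its sex.

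Of 9 resident fibroblast genes, 3 were higher in mutants and 0 lower, with a median log2 fold change of -0.11, against -0.012 over all genes: dermatopontin (Dpt), at 1.27 (SE 0.27, adjusted p = 0.00176) in edgeR, Col14a1, the most abundant, at 0.76 (SE 0.12, adjusted p = 0.000204), and Cd34, at 0.60 (SE 0.098, adjusted p = 0.000211). Of 11 pericyte and mesangial genes, 2 were higher and 1 lower, near the shares of all genes (10.0% higher and 5.86% lower), with a median of -0.03. Mcam was higher, at 0.73 (SE 0.14, adjusted p = 0.000815), as was Cspg4, which encodes the NG2 proteoglycan of pericytes, at 0.35 (SE 0.092, adjusted p = 0.00871), and the potassium channel subunit Abcc9 was lower, at -0.51 (SE 0.13, adjusted p = 0.00804). Gata3, the most abundant of that list and also a gene of the collecting duct, averaged 17.4 ± 2.61 CPM in male controls and 17.8 ± 4.23 CPM in male mutants (SD, n = 5 each). Of 7 transcription factors of epithelial to mesenchymal transition and cadherins tested, edgeR called 0 over both sexes and DESeq2 0, with 1 at an unadjusted edgeR p under 0.05, a median of 0.21, and Cdh1 the most abundant.

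**Figure D3:**
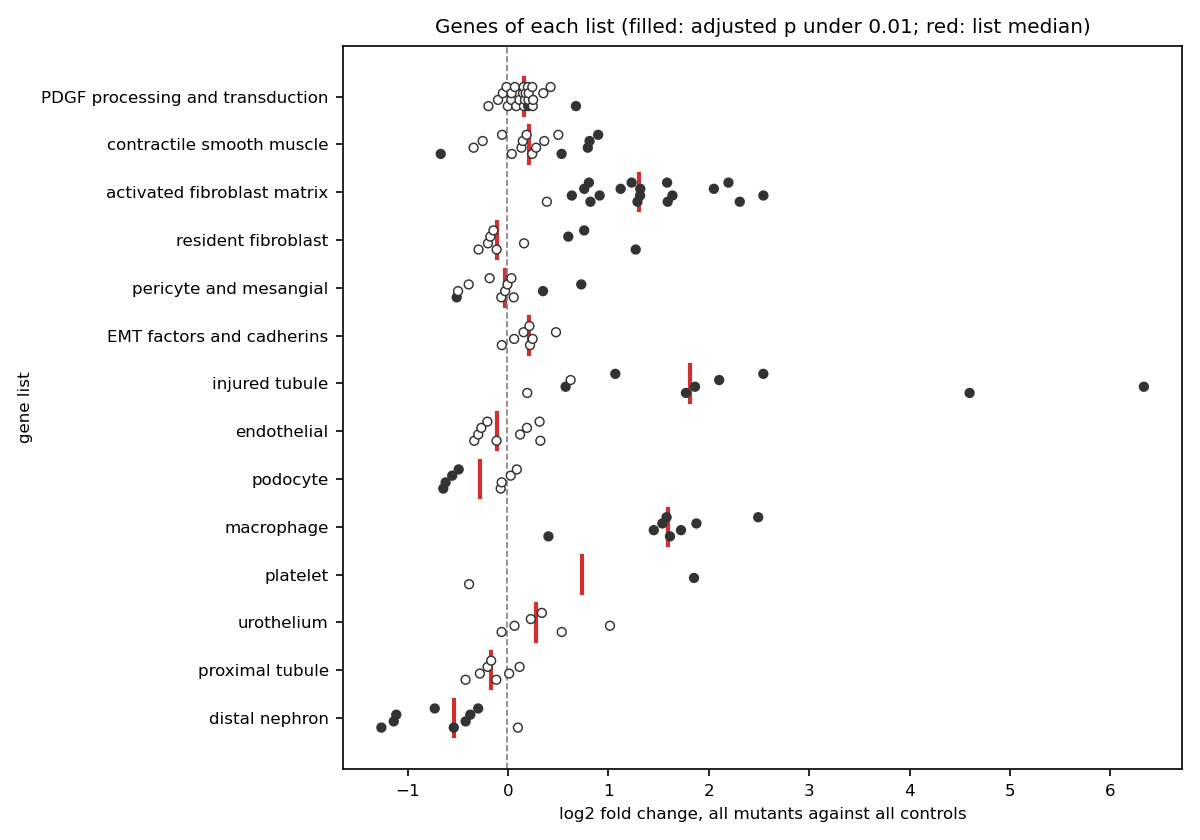
Log2 fold change over both sexes (horizontal axis) of each tested gene of the 14 lists (vertical axis), filled where the adjusted p was under 0.01, with the median of each list in red and the median of all genes as a dashed line. All tested genes of the activated fibroblast matrix, injured tubule and macrophage lists lie to the right of 0, while the contractile, pericyte and resident fibroblast lists straddle it.

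Most markers of macrophages and injured tubules were higher in mutants as well. All 8 macrophage genes were higher in mutants over both sexes, with a median log2 fold change of 1.60, led by lysozyme 2 (Lyz2), also the most abundant, at 2.49 (SE 0.33, adjusted p = 3.98e-05) in edgeR, Mrc1, at 1.88 (SE 0.29, adjusted p = 0.000121), and the complement genes C1qc, at 1.72 (SE 0.26, adjusted p = 9.57e-05), and C1qa, at 1.61 (SE 0.27, adjusted p = 0.000262). In females alone edgeR called 0 of the 8, all had an unadjusted p under 0.05 and DESeq2 called 5, and without female mutant 4 edgeR called 7. The summed level of the macrophage list was 126, 137, 145, 139 and 157 CPM in male controls and 670.2, 232, 418, 385 and 243 CPM in male mutants. In females the same sum was 203, 165, 171, 160.4 and 171 CPM in controls and 756, 508, 925, 179 and 273 CPM in mutants. The highest sums belonged to male mutant 1 and female mutant 3, which were also the highest of their groups for Acta2, Tagln, Postn and Vim. Of 10 injured tubule genes 8 were higher, led by Havcr1, at 6.33 (SE 0.57, adjusted p = 1.85e-06), Lcn2, at 4.60 (SE 0.52, adjusted p = 9.56e-06), Vcam1, at 2.54 (SE 0.29, adjusted p = 8.85e-06), and Sox9, at 2.10 (SE 0.37, adjusted p = 0.00037), and osteopontin (Spp1) was the most abundant. In females alone edgeR called 1 of 10 with female mutant 4 and 5 without it, and DESeq2 called 8 with it. The summed injured tubule level was 1532, 1330.03, 1635, 1473 and 1343 CPM in male controls and 10716, 2527, 4539, 4045 and 2285 CPM in male mutants. In females that sum was 2597, 2755, 2731, 2726 and 3147 CPM in controls and 11756, 8906, 10419, 3638 and 3279 CPM in mutants. The part of macrophages, injured tubules and other cell types in the differences of the 10 genes was not tested.

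Of 9 endothelial genes edgeR called 0 over both sexes, with a median log2 fold change of -0.12, while 7 had an unadjusted p under 0.05 and DESeq2 called 2, and Plvap was the most abundant. By sex, edgeR called Pecam1 and Plvap higher in male mutants and DESeq2 3 of the 9, with a median of -0.013, whereas in females edgeR called 0, 4 had an unadjusted p under 0.05 and DESeq2 called 1, lower in mutants, with a median of -0.20. The summed endothelial level averaged 456 ± 29.2 CPM in male controls and 524 ± 44.5 CPM in male mutants, and 658 ± 43.01 CPM in female controls and 592 ± 48.6 CPM in female mutants (SD, n = 5 each). The sex-by-genotype term was above 0 for all 9, as for 8576 of 14820 genes, with a median of 0.30, against 0.035 over all genes. For that term edgeR and DESeq2 called 0 of the 9, and 3 had an unadjusted p under 0.05. Of 8 podocyte genes 4 were lower in mutants, against 5.86% of all genes, with a median of -0.28, among them nephrin (Nphs1), at -0.65 (SE 0.12, adjusted p = 0.000543), Podxl, the most abundant, at -0.56 (SE 0.09, adjusted p = 0.000198), and Wt1, at -0.49 (SE 0.084, adjusted p = 0.000324). Of 9 distal nephron genes 8 were lower, with a median of -0.54, led by Slc4a1, at -1.26 (SE 0.18, adjusted p = 6.32e-05), Calb1, at -1.14 (SE 0.17, adjusted p = 0.000119), Slc12a3, at -1.11 (SE 0.14, adjusted p = 1.79e-05), and Slc12a1, at -0.73 (SE 0.13, adjusted p = 0.000336), and 0 of 7 proximal tubule genes were called in edgeR or DESeq2, with 3 at an unadjusted p under 0.05 and a median of -0.17. Of 5 genes of platelets, which store PDGF protein, 2 passed the filter, of which Pf4 was higher in mutants, at 1.85 (SE 0.37, adjusted p = 0.0011), while Itga2b, the most abundant, changed the other way, at -0.39 (SE 0.11, adjusted p = 0.0163) in edgeR, and DESeq2 called it lower. The summed platelet level was 11.9 to 15.3 CPM in male controls, 10.2 to 12.8 CPM in male mutants, 10.02 to 11.4 CPM in female controls and 6.38 to 13.9 CPM in female mutants. Of 6 urothelial genes 0 were called in edgeR or DESeq2, with 1 at an unadjusted p under 0.05 and a median of 0.28, and the most abundant, Upk1a, averaged 3.20 ± 2.60 CPM in male controls and 3.50 ± 2.55 CPM in male mutants (SD, n = 5 each).

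Kidney size was taken as the labelled kidney weight, that of 1 kidney by the study's own description, as a percent of body weight (KBW), which averaged 0.692 ± 0.117 in male controls, 1.68 ± 0.338 in male mutants, 0.615 ± 0.0448 in female controls and 1.18 ± 0.261 in female mutants (SD, n = 5 each). Among the 10 mutants it ran from 0.836 in female mutant 4 to 2.15 in male mutant 1. In an edgeR fit of expression on KBW among mutants with sex as covariate, 0 of the 10 genes and 0 of 14416 genes passed at 0.01, and 0 of the 10 without any single mouse, female mutant 4 included, while 3212 genes (22.3%) and 7 of the 10 had an unadjusted p under 0.05. DESeq2 called 577 genes, among them Tagln, Postn and Vim, where 2.96% of genes had a positive slope called. At an adjusted p under 0.05 in edgeR the slopes of Tagln and Vim passed, against 1.99% of genes with a positive slope. The slope, in log2 units per percentage point of KBW, was 1.79 (SE 0.41, edgeR adjusted p = 0.0448) for Tagln and 1.63 (SE 0.38, edgeR adjusted p = 0.0463) for Vim. It was 2.48 (SE 0.62, edgeR adjusted p = 0.057) for Postn, 1.68 (SE 0.49, edgeR adjusted p = 0.0836) for Acta2 and 0.94 (SE 0.29, edgeR adjusted p = 0.0941) for Pdgfrb. With no sex term the slopes fell to 0.80 (adjusted p = 0.485) for Tagln, 0.47 (adjusted p = 0.717) for Vim, 1.37 (adjusted p = 0.369) for Postn, 0.89 (adjusted p = 0.437) for Acta2 and 0.28 (adjusted p = 0.726) for Pdgfrb, so that Tagln and Vim no longer passed at 0.05. Litter was a term in neither of these fits. With groups of sex and litter in place of sex the slope of Vim was 1.66. Whether Tagln and Vim passed at 0.05 in that fit is not given here. With each mouse left out, the slope ran from 1.48 to 2.16 for Tagln and from 1.43 to 1.91 for Vim, with adjusted p up to 0.205 and 0.21, and both passed at 0.05 only without male mutant 4 or male mutant 5. The slopes of all 10 genes were positive, with a median of 0.90, against -0.057 over all genes.

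**Figure D4:**
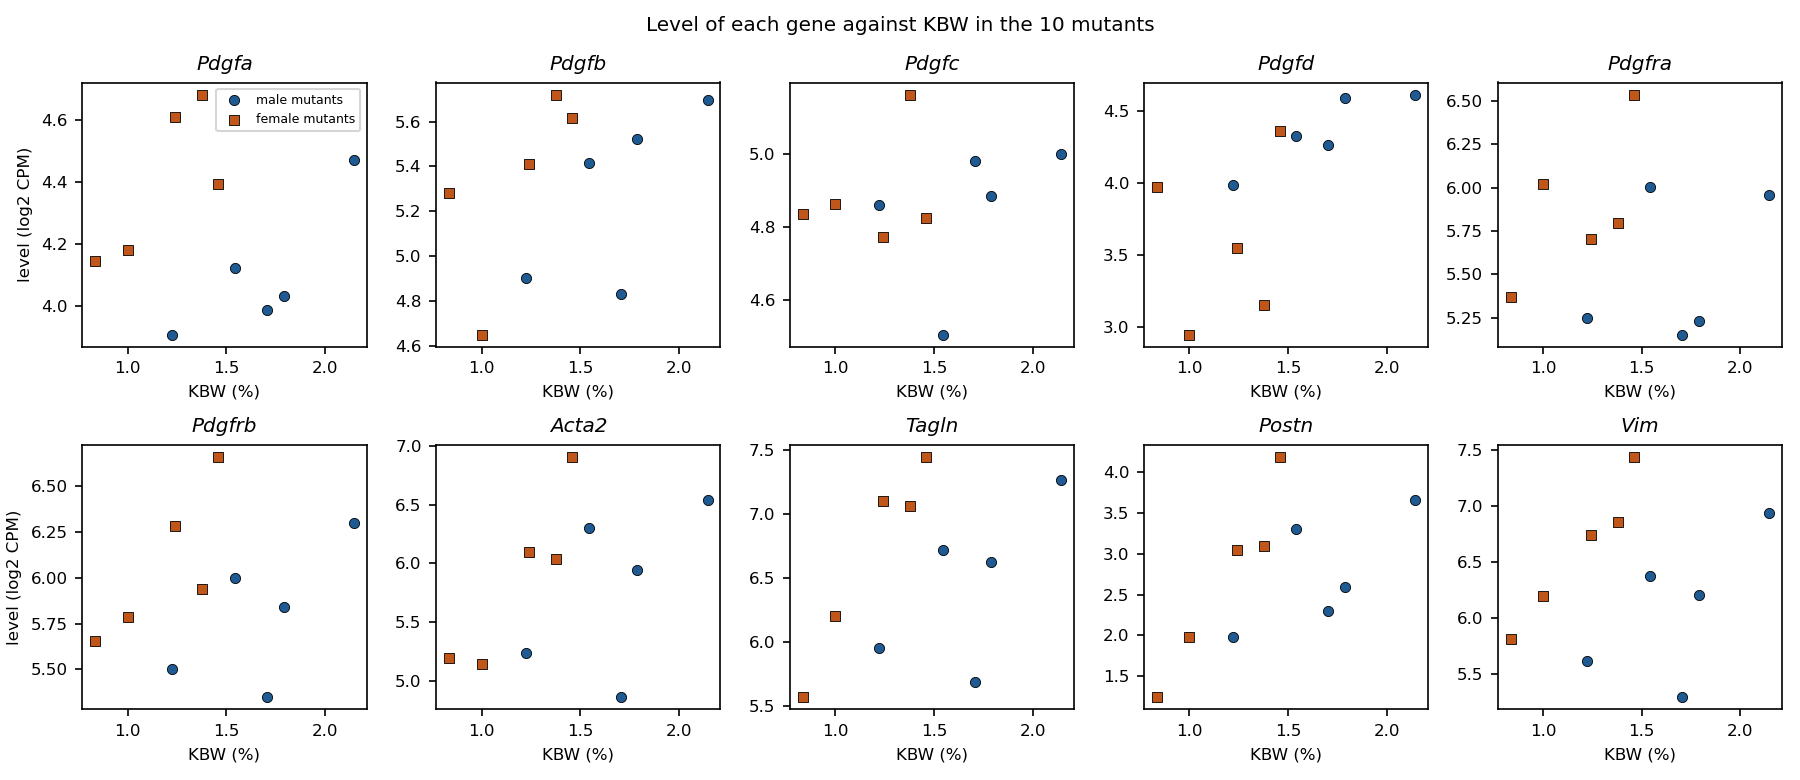
Log2 CPM of each gene (vertical axis) against KBW in percent (horizontal axis) in the 5 male (blue circles) and 5 female (orange squares) mutants, with 1 point per mouse. At a like KBW the female mutants lie above the males for Tagln and Vim, and the correlation within sexes is higher than the pooled one for those genes.

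Over the 10 mutants Pearson's r of log2 CPM with KBW was 0.676 for Pdgfd (permutation p = 0.0327, adjusted over 14416 genes 0.281), with a Spearman's rho of 0.806 (permutation p = 0.00756, adjusted 0.246). For Postn r was 0.609 (permutation p = 0.0613, adjusted 0.358) and rho 0.648 (permutation p = 0.0498, adjusted 0.393). For Acta2 r was 0.467 (permutation p = 0.175, adjusted 0.522) and rho 0.406 (permutation p = 0.249, adjusted 0.636). For Tagln r was 0.454 (permutation p = 0.188, adjusted 0.536) and rho 0.430 (permutation p = 0.220, adjusted 0.614). The other 6 genes had r from 0.0437 (Pdgfra) to 0.443 (Pdgfb), and no gene of 14416 passed adjustment at 0.05. All 10 values of r were positive, as were 52.0% over all genes, with a median of 0.348, against 0.0248. Without the mice of highest and lowest KBW, male mutant 1 and female mutant 4, r became -0.0200 for Tagln, 0.173 for Acta2, 0.248 for Postn and -0.153 for Vim, so for these genes it rested on those mice. Of the other genes Pdgfa, Pdgfra and Pdgfrb fell below 0 as well, to -0.286, -0.349 and -0.105, so that 5 of the 10 values of r were then negative, Pdgfc came to 0.00167, Pdgfb to 0.389 and Pdgfd to 0.809. The pooled r of Pdgfd includes a sex difference, as male mutants, with the higher KBW, averaged 20.6 CPM and female mutants 12.8 CPM. With sex as covariate the slope of Pdgfd on KBW was 0.60 (SE 0.43, edgeR adjusted p = 0.436).

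Males had the higher KBW and, for several genes, the lower level, so deviations from the mean of each sex were also related. In deviations r was 0.800 for Postn (exact permutation p within sex = 0.00472, adjusted 0.112), 0.795 for Tagln (p = 0.0103, adjusted 0.123), 0.789 for Pdgfa (p = 0.0174, adjusted 0.139) and 0.782 for Vim (p = 0.0160, adjusted 0.136), by exact two-sided permutation. The same r was 0.715 for Pdgfrb (exact permutation p = 0.0321, adjusted 0.176), 0.705 for Acta2 (p = 0.0362, adjusted 0.185) and 0.683 for Pdgfb (p = 0.0404, adjusted 0.194). For Pdgfra it was 0.510 (exact permutation p = 0.164, adjusted 0.389) and for Pdgfc 0.398 (p = 0.287, adjusted 0.527). For Pdgfd it was 0.394 (exact permutation p = 0.239, adjusted 0.478), lower than its pooled value. No litter or sex held 6 mutants, so no r within a litter or a sex is given. The mutants of litter C, male mutant 5 with a KBW of 1.71 and female mutant 5 with 1.00, had the lowest Acta2 levels of their groups, and without male mutant 5 the pooled r of Acta2 rose to 0.701.

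Between the sexes, the receptors differed in controls. At an adjusted p under 0.01, 2 of the 10 genes, Pdgfra and Pdgfrb, were lower in male than in female controls, against 9.02% of 14123 genes. Among all genes the calls in either direction, 2510 with all mice, ran from 1223 without male control 4 to 2659 without male control 3. All 5 male controls lay below all 5 female controls for Pdgfra, Pdgfrb and Pdgfb, as for 14.1% of genes. The log2 difference between male and female controls was -0.58 (SE 0.089, edgeR adjusted p = 0.000442) for Pdgfra and -0.47 (SE 0.086, edgeR adjusted p = 0.00142) for Pdgfrb. Taken litter by litter, from A to C, males differed from females by -0.66, -0.59 and -0.60 for Pdgfra and -0.52, -0.43 and -0.63 for Pdgfrb. Vim, at -0.38 (SE 0.11, edgeR adjusted p = 0.0182), passed without female control 1 (-0.53, adjusted p = 0.00799) or male control 3 (-0.42, adjusted p = 0.00488), and DESeq2 called it too, while over each mouse left out it ran from -0.53 to -0.30. The call of Pdgfrb was lost without female control 1 (edgeR adjusted p = 0.0138), and both calls were lost when all 20 mice were fitted at once (edgeR adjusted p = 0.0291 for Pdgfra and 0.0293 for Pdgfrb), with log2 differences of -0.64 and -0.52. Several lists were lower in male controls too: 8 of 9 endothelial and 6 of 8 podocyte genes, 7 of 18 matrix genes and 3 of 9 resident fibroblast genes, with medians of -0.45, -0.59, -0.55 and -0.34, against -0.011 over all genes. So were 5 of 9 distal nephron, 5 of 16 contractile, 3 of 8 macrophage and 4 of 10 injured tubule genes, while 1 injured tubule gene was higher.

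Among mutants edgeR called 0 of the 10 genes between the sexes, where 3.59% of 14416 genes were higher and 1.84% lower in males. These 782 calls among all genes became 246 without female mutant 1 and 1330 without female mutant 4, the extremes over each mouse left out. Of the 10, 2 had an unadjusted p under 0.05, as did 30.5% of all genes, and DESeq2 called Pdgfd, against 8.35% of genes higher in males. The log2 difference between male and female mutants was 0.86 (SE 0.23, edgeR adjusted p = 0.0335) for Pdgfd, -0.37 (SE 0.26, edgeR adjusted p = 0.364) for Pdgfra and -0.25 (SE 0.21, edgeR adjusted p = 0.444) for Pdgfrb. Within litters A, B and C male mutants exceeded female mutants in Pdgfd by 1.15, 0.50 and 1.32. Without female mutant 3, edgeR called Pdgfd between the sexes (0.99, adjusted p = 0.00814), as it did with all 20 mice in 1 fit (0.77, adjusted p = 0.00524), and over each mouse left out the value ran from 0.71 to 0.99, with edgeR adjusted p up to 0.167. The sex-by-genotype term was called for 0 of the 10 genes and 0 of 14820 genes in edgeR, with 618 genes (4.17%) and, of the 10, Pdgfd alone at an unadjusted p under 0.05, and for 18 genes in DESeq2, none of the 10. Apart from Pdgfd the term ran from -0.14 for Vim to 0.39 for Postn.

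The 10 genes differed in how closely they varied together over the 20 mice, which share genotype and sex differences, so that the values below are descriptions without a test. Pearson's r of log2 CPM was 0.965 between Acta2 and Tagln, 0.961 between Tagln and Vim and 0.940 between Acta2 and Vim. Pdgfb followed them, with 0.909 for Acta2, and Pdgfrb less so, with 0.868 for Vim and 0.834 for Acta2. Pdgfd, Pdgfra and Pdgfc had a lower r with Acta2, of 0.506, 0.504 and 0.456, and Pdgfd had an r of 0.000589 with Pdgfra. Among all genes with a mean of at least 1 CPM, the patterns most like Acta2 were those of Col8a1 (0.964), Sparc (0.960) and Col1a1 (0.959), and the most like Tagln were Sparc (0.972), Tpm1 (0.969) and H2-Aa (0.967). Vim was nearest to Bcam (0.977), Fblim1 (0.977) and Tpm1 (0.976), and Postn was near to Htra3 (0.921) and Thbs2 (0.909). Pdgfrb was nearest to Col5a1 (0.979), Wipf1 (0.962) and Itpripl2 (0.960), and Pdgfra to Amotl1 (0.936), Sipa1 (0.932) and Sparcl1 (0.930). Among ligands, Pdgfb was nearest to the cell cycle inhibitor Cdkn1a (0.966), Stk17b (0.958) and Stat3 (0.953), and Pdgfa was near to S100a14 (0.917) and Mal2 (0.915). Pdgfd was nearest to Mapk1ip1l (0.893), Ppfibp1 (0.886) and Jak1 (0.885), and Pdgfc, at lower values, to Oas1c (0.798), Dyrk3 (0.757) and Plscr1 (0.743).

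Because Acta2 is known as a target of serum response factor, which binds the CArG box, the promoters were searched for that motif, CC and GG around 6 inner bases of A or T, on both strands. RefSeq promoters (GRCm38.p6) were at hand for 7 of the 10 genes, and the search covered the 250 bases before each start. A CArG box stood in 1 of the 7, Pdgfc, and in 1.47% of all 32851 promoters. With exactly 1 G or C among the 6 inner bases, a form chosen after the sequences were seen, Acta2 alone of the 7 had a match, and it had 2, where 7.24% of promoters held a match and 0.548% at least 2. Each stretch below is 30 bases long, 5′ to 3′, with the matching 10 bases in capitals, and is shown because these are the only matches among the 7 genes with entries. The first Acta2 stretch is at chr19:34255438-34255467 and the second at chr19:34255388-34255417, both on the minus strand, and that of Pdgfc is at chr3:81036386-81036415 on the plus strand. RefSeq places the Acta2 start inside the bounds given above from GENCODE M21, so the Acta2 stretches lie within those bounds.
Acta2, 84 bases before the start: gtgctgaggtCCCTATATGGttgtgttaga
Acta2, 34 bases before the start: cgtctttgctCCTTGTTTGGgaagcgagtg
Pdgfc, 17 bases before the start: cagcccgcagactCCTTATTTGGggttagg
A match is a description of the sequence and was not tested as a binding site. Missing entries: Pdgfb, Pdgfrb and Tagln.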

How the data were processed

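Kidney RNA of 20 mice was analysed. The authors deposited raw counts per gene, which are whole-number read counts that were not normalized. The submitters' processing notes name fastp 0.23.2, STAR 2.7.10b, the mm10 build, R 4.3.0 and DESeq2, while the counting tool, annotation and strand setting are not given in the sources used here. From the counts, edgeR 4.0.16 in R 4.3.3 (TMM, filterByExpr, quasi-likelihood test) was fitted over all genes with litter as covariate within a sex or genotype, 6 groups of sex and litter over both sexes, and sex for KBW. P-values were adjusted by the Benjamini-Hochberg method over all genes tested, and an adjusted p under 0.01 counted as called. DESeq2 1.42.0 was the other tool. Levels are CPM on TMM factors, log2 CPM used a prior count of 2, and exon lengths came from GENCODE M21. KBW is 100 times the kidney weight over the body weight as labelled; the kidney weight stands there in 2 units, and the value taken as grams was used. Correlations used 100000 two-sided permutations over mice, or all 14400 within sex. Fits were tested on simulated data, and no result given here rests on that test. No 2 libraries agreed within counting noise (smallest chi-square per degree of freedom 5.93). Alternatives were other size factors, filters, tools, covariates and each mouse left out. The 10 genes and the 14 lists were chosen with earlier results of these data known. Genes named from a list are the 4 with the largest absolute change among those called over both sexes, with the most abundant marker, and for each of the 10 genes the 3 with the highest r over 20 mice; some genes that this rule names are not reported here.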

Additional observations from a re-analysis of the deposited data

Results flagged for a closer look

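Of 40 sets of 5 values, 10 genes in 4 groups of the same 20 mice, 3 held a mouse far from the others, where chance alone gives about 1 in 20 sets and the sets are not independent. Female control 3 had the highest Pdgfb level of its group, 31.5 CPM, and also the highest Postn level, 8.25 CPM. Female mutant 1 had the highest Pdgfc level of its group, 35.7 CPM. Without female control 3, edgeR called Postn over both sexes.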

How the results depend on the processing

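Of 1430 values of single genes under the alternatives, 1310 kept their direction and their side of the threshold, 36 fell short of it, 40 newly passed it and 44 changed sign. No paired analysis was possible because the labels join mutants and controls by litter and not mouse to mouse; litter is in the model. In males the count of genes called went from 4 to 7 with no filter on low counts, where 1038 of 19162 genes were higher in mutants. The genes added were Pdgfrb, Postn and Vim. In males the count also went to 7 at an adjusted p under 0.05, and leaving out each mouse gave 0 to 7. In females it went from 0 to 3 with DESeq2, to 2 with all 20 mice in 1 fit and to 2 at 0.05, and leaving out each mouse gave 0 to 3. Over both sexes it went from 5 to 8 at 0.05, and leaving out each mouse gave 4 to 8, while calls among all genes ran from 1656 to 2994. With no litter term Pdgfa and Postn passed over both sexes as well, where 1494 of 14191 genes were higher in mutants. Between male and female controls the count went from 2 to 0 with all 20 mice in 1 fit, and leaving out each mouse gave 2 to 3. Between male and female mutants it went from 0 to 1 with DESeq2, with all 20 mice in 1 fit and at 0.05, and leaving out each mouse gave 0 to 1. For the slope on KBW it went from 0 to 3 with DESeq2 and to 2 at 0.05. The cause of these moves was not tested, whether a setting was changed or a mouse left out. For comparisons of groups no share of all genes passing at 0.05 is given here, so the counts at 0.05 cannot be set against it.

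Among all genes, DESeq2 called 2001 in males against 1185 with edgeR, 928 against 92 in females and 1959 against 782 between mutants of each sex. With all 20 mice in 1 fit 856 genes were called in females and 2353 between mutants of each sex, with no filter on low counts 230 in females, and with no litter term 172 in females.

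With each mouse left out, the log2 fold change in females ran from -0.11 to 0.24 for Pdgfd and from -0.23 to 0.15 for Pdgfra, and Pdgfra was -0.011 with no filter and -0.0085 with all 20 mice in 1 fit. Between male and female controls it ran from -0.13 to 0.094 for Pdgfc, which was -0.063 with all 20 mice in 1 fit, and from -0.019 to 0.10 for Pdgfd. Between male and female mutants it ran from -0.12 to 0.073 for Pdgfb, -0.28 to 0.13 for Acta2 and -0.34 to 0.31 for Postn. The sex-by-genotype term ran from -0.056 to 0.33 for Pdgfb, -0.16 to 0.11 for Pdgfc, -0.20 to 0.56 for Acta2, -0.32 to 0.32 for Tagln, -0.20 to 0.90 for Postn and -0.57 to 0.14 for Vim. Pearson's r with KBW ran from -0.152 to 0.184 for Pdgfa and -0.120 to 0.186 for Pdgfra.

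Whole-kidney RNA with 5 mice a group limits these results. Within each sex errors were largest for Postn, which had few counts, and the library of female mutant 4 stood apart in detected genes. Litter C held 1 mouse per group. Levels of RNA say nothing of PDGF protein, receptor activity or the cells that make each transcript.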
